A study of Mus musculus with 15 samples.

Results

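The Cyp2d genes form a cluster of cytochrome P450 genes on mouse chromosome 15, and 8 of them were followed by name in the kidney: Cyp2d9, Cyp2d10, Cyp2d11, Cyp2d12, Cyp2d22, Cyp2d26, Cyp2d34 and Cyp2d40. They were chosen because a Cyp2d9 transcript, Cyp2d9-207 (ENSMUST00000230024), had lower values in Ang II than in Control and higher values again in Ang II + QDG in these same data. The comparison asked whether the whole gene or only this transcript differed, and because the choice used Cyp2d9 values, all Cyp2d9 values are given as a description without a test. Matched by Ensembl transcript ID to GENCODE mouse release 21, 4 of the 8 genes were found, with 20 of the 28871 annotated transcripts that all 15 mice share. These were 7 of the 9 annotated transcripts of Cyp2d9, 5 of 7 of Cyp2d12, 4 of 6 of Cyp2d22 and 4 of 4 of Cyp2d26. No transcript of Cyp2d10, Cyp2d11, Cyp2d34 or Cyp2d40 was listed for any mouse. The lists hold transcripts whose mean was at least 0.5 FPKM in a group, and the levels of these 4 genes were not analysed here.

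The kidneys came from 15 male wild-type C57BL/6 mice, 5 in each of 3 groups, and every group was treated for 28 days. From subcutaneous osmotic pumps, Control mice were infused with saline and Ang II mice with angiotensin II at 500 ng/kg/min. Ang II + QDG mice received the same infusion as Ang II mice, with QDG at 1.145 g/kg/d. QDG is Qingda granule, a Chinese herbal formula of 4 plants that was given by gavage. Control and Ang II mice were given an equal volume of water by gavage. The infusion is a model of hypertension with kidney injury in otherwise healthy animals, and the RNA came from kidney tissue with no cell type separated.

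Cytochrome P450 enzymes of the endoplasmic reticulum use haem iron and electrons from NADPH, passed on by cytochrome P450 reductase (Por) and cytochrome b5, to add oxygen to drugs and steroids. In the mouse the Cyp2d subfamily has many genes with similar sequences. Cyp2d9 encodes a testosterone hydroxylase that is known to be higher in males, under growth hormone in the liver and androgens in the kidney. The proximal tubule is the part of the nephron that is richest in drug-metabolizing P450 enzymes.

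The values were FPKM, reads per kilobase of transcript divided by the sequencing depth of the library, and they imply 68922800 to 81329500 reads or fragments per mouse. Behind the summed transcripts of a gene stood 6377 to 17103 reads per mouse for Cyp2d9 (median 12139), 2579 to 19516 for Cyp2d26, 2373 to 5644 for Cyp2d12 and 198 to 825 for Cyp2d22. Cyp2d9-207 had 103 to 1301 reads per mouse (median 595). Counting error at this depth is small beside the spread between mice, except for transcripts with a few reads.

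Cyp2d9 lies at chr15:82433437-82456845 on the plus strand of GRCm38, and its full-length coding transcript Cyp2d9-201 (ENSMUST00000089129) has 9 exons and 1712 bases. Cyp2d9-207 is annotated with 6 exons and 719 bases at chr15:82454400-82456643, with an incomplete 5′ end that begins inside exon 4 of Cyp2d9-201. The feature that separates it is its start of exon 8, which lies 40 bases further downstream, at 82456374 in place of 82456334. Its annotated coding sequence ends in exon 8, at 82456442, whereas that of Cyp2d9-201 ends in exon 9, at 82456763. Cyp2d9-208 (ENSMUST00000230191), annotated as a target of nonsense-mediated decay, leaves out exon 6 with its 142 bases. Cyp2d9-206 (ENSMUST00000230000) leaves out exons 6 and 7 with 330 bases together, and both its ends are incomplete. The exon joins, from the GENCODE transcript sequences, are shown because they are what tells these transcripts apart. In Cyp2d9-201 the capitals mark the 40 bases of exon 8 that are absent from Cyp2d9-207, and in the other lines they mark the 4 bases on each side of the join.
Cyp2d9-201: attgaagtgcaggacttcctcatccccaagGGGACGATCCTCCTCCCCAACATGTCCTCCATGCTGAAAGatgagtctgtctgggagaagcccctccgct
Cyp2d9-207: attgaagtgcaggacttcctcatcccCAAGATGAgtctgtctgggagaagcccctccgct
Cyp2d9-208: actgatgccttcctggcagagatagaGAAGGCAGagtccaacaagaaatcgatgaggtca
Cyp2d9-206: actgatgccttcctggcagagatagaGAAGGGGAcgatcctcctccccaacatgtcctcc

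Little of the sequence of Cyp2d9-207 is its own. Of the 689 words of 31 bases in Cyp2d9-207, 27 occurred in no other annotated transcript, and all of these spanned its exon 7 to exon 8 join. Of the rest, 372 were shared only with other Cyp2d9 transcripts and 290 also occurred in other genes. Cyp2d9-208 had 25 words of its own and Cyp2d9-206 had 26, while Cyp2d9-201 had 74, which is 4.4% of its words. Words that also occur in other genes made up 46.4% of Cyp2d9-201, 50.1% of Cyp2d9-208, 41.8% of Cyp2d9-206 and 42.1% of Cyp2d9-207. The Cyp2d9 sum may therefore also depend on how reads were divided between genes. Reads of Cyp2d9-207 that do not span this join fit other transcripts as well, and the method by which the authors divided them is not given in the sources used here.

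**Figure D1:**
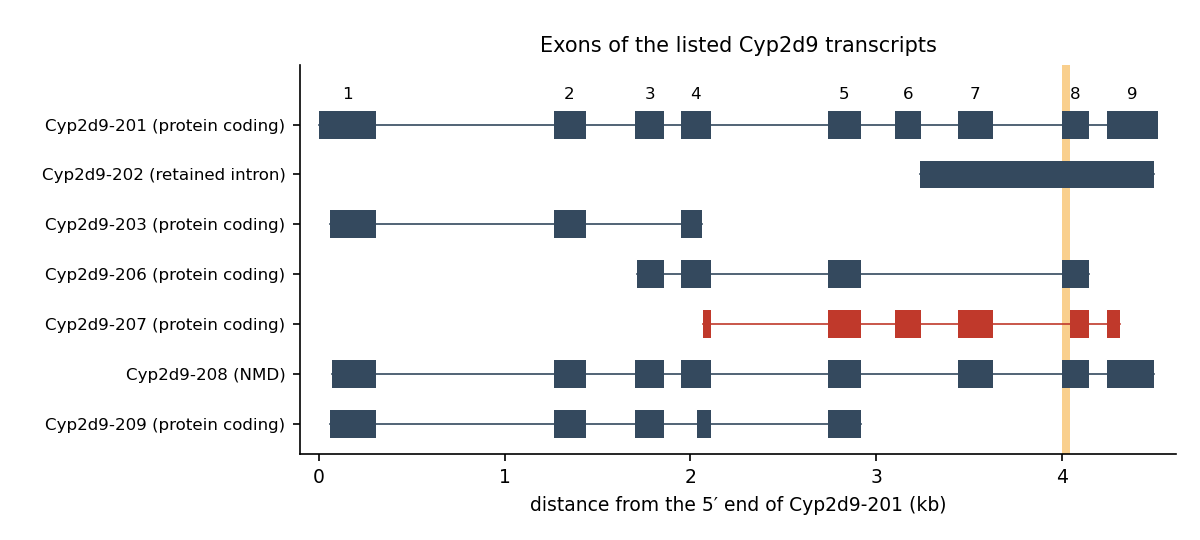
Exons of the 7 listed Cyp2d9 transcripts (boxes) and introns (lines) against the distance from the 5′ end of Cyp2d9-201 in kb, with the exon numbers of Cyp2d9-201 above and their annotated type beside the names. The orange band marks the 40 bases of exon 8 that Cyp2d9-207 (red) leaves out, and Cyp2d9-206 and Cyp2d9-208 skip exon 6.

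Cyp2d9-207 is the transcript for which the family was chosen. In Control it was at 10.4, 12.4, 24.1, 13.3 and 17.5 FPKM. In Ang II it was at 3.63, 1.81, 3.04, 3.23 and 3.49 FPKM, below every Control mouse. With QDG added it was at 8.07, 15.5, 18.7, 3.97 and 17.1 FPKM, above every Ang II mouse, with replicate 4 close to the Ang II range. The means were 15.6 ± 5.43, 3.04 ± 0.726 and 12.7 ± 6.34 FPKM (SD, n = 5 each). The log2 fold change of FPKM + 1 was −2.001 (SE 0.35) in Ang II vs. Control, 1.61 (SE 0.35) in Ang II + QDG vs. Ang II and −0.39 (SE 0.35) in Ang II + QDG vs. Control, the last being −0.0672 without Ang II + QDG replicate 4. Among all 28812 transcripts tested, 1.06% had every Ang II mouse below every Control mouse and 1.16% had every Ang II + QDG mouse above every Ang II mouse, and nothing is read from this for a transcript chosen by it. In bulk tissue, fewer cells that express a gene and less of its RNA per cell cannot be told apart.

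Cyp2d9-201, the full-length coding transcript and the most abundant of the gene, did not follow this pattern. It was at 41.3, 34.6, 75.3, 47.0 and 78.1 FPKM in the Control mice and at 65.3, 27.8, 45.1, 82.0 and 48.7 FPKM in the Ang II mice. The Ang II + QDG mice were at 60.8, 67.4, 60.7, 73.2 and 86.7 FPKM. The Control and Ang II mice covered nearly the same range, with means of 55.3 ± 20.1 and 53.8 ± 20.6 FPKM, and the Ang II + QDG mean was 69.7 ± 10.8 FPKM (SD, n = 5 each). Its log2 fold change was −0.05 (SE 0.28) for Ang II vs. Control and 0.44 (SE 0.28) for Ang II + QDG vs. Ang II, and the latter was 0.23 without Ang II replicate 2.

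Cyp2d9-208, the second most abundant transcript, moved in the direction of Cyp2d9-207 with overlap between the groups. It was at 21.8, 30.1, 46.7, 28.3 and 29.3 FPKM in the Control mice, at 20.97, 13.8, 34.7, 5.89 and 10.5 FPKM in Ang II and at 61.3, 30.7, 36.2, 27.2 and 28.7 FPKM with QDG added. In Ang II, 4 of the 5 mice were below every Control mouse and the other one was above all but the highest. The log2 fold change was −1.004 (SE 0.37) for Ang II vs. Control and 1.21 (SE 0.37) for Ang II + QDG vs. Ang II.

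Cyp2d9-206 varied within each group by more than between groups. It was at 24.9, 41.7, 5.16, 1.40 and 23.5 FPKM in the Control mice and at 54.2, 9.42, 13.2, 5.36 and 2.87 FPKM in the Ang II mice. Of the Ang II + QDG mice 3 were listed at 0 and the others were at 7.33 and 42.1 FPKM. Such values, with a transcript under 1 FPKM in a mouse and at 5 FPKM or more in another mouse of the same group, were found for 6 of the 16 Cyp2d transcripts that passed the filter and for 18.1% of all 28812 transcripts tested. The 3 remaining Cyp2d9 transcripts were low. The retained-intron transcript Cyp2d9-202 stayed between 2.004 and 4.88 FPKM in all 15 mice, with a log2 fold change of −0.03 (SE 0.18) in Ang II vs. Control. Cyp2d9-203 and Cyp2d9-209, whose annotated 3′ ends are incomplete, were listed at 0 in some mice and reached 1.77 and 6.88 FPKM.

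**Figure D2:**
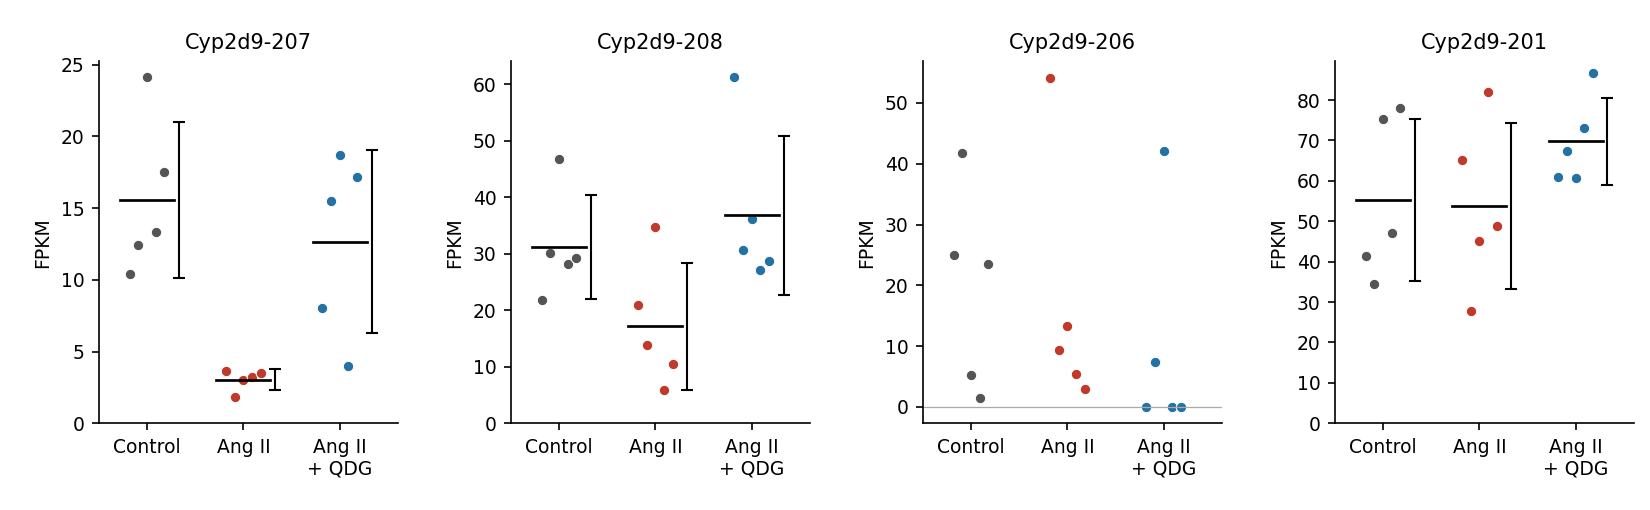
FPKM of Cyp2d9-207, Cyp2d9-208, Cyp2d9-206 and Cyp2d9-201, 1 point per mouse, for the 3 groups (5 mice each, replicates 1 to 5 from left to right); lines are means and bars are SD, left out for Cyp2d9-206, which was listed at 0 in 3 mice. The Ang II mice lie between 1.81 and 3.63 FPKM for Cyp2d9-207, below all others, and overlap both groups for Cyp2d9-201.

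Summed over its 7 listed transcripts, Cyp2d9 was at 103, 125, 161, 97.0 and 153 FPKM in the Control mice and at 150, 57.2, 99.3, 100.2 and 72.6 FPKM in the Ang II mice. With QDG added the sum was 136, 126, 169, 109 and 140 FPKM. The groups overlapped, with 2 Ang II mice below every Control mouse and 1 near the top of the Control range, and the means were 127.7 ± 28.8, 95.8 ± 35.3 and 136.1 ± 22.0 FPKM (SD, n = 5 each). For the gene the log2 fold change was −0.46 (SE 0.22) for Ang II vs. Control and 0.56 (SE 0.22) for Ang II + QDG vs. Ang II, and the former was −0.29 without Ang II replicate 2. Both were smaller in size than those of Cyp2d9-207, but that transcript was chosen for its differences, so nothing is read from this order. Without Cyp2d9-207 the sum was 112.1 ± 24.3, 92.8 ± 34.8 and 123.5 ± 17.7 FPKM.

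The mean sum of Ang II minus that of Control was −31.9 FPKM, made up mostly by Cyp2d9-208, with −14.03 FPKM, and Cyp2d9-207, with −12.5 FPKM. The part of Cyp2d9-201 in it was −1.47 FPKM. From Ang II to Ang II + QDG the mean sum was 40.3 FPKM higher, of which Cyp2d9-208 made up 19.6 FPKM, Cyp2d9-201 15.96 FPKM and Cyp2d9-207 9.63 FPKM, while Cyp2d9-206 took −7.13 FPKM from it. The sum of reads in place of FPKM, which gives long transcripts more weight, was 170.6 ± 44.7 reads per 1000000 in Control, 135.7 ± 41.01 in Ang II and 196.3 ± 17.3 with QDG added (SD, n = 5 each). It overlapped between Control and Ang II as well.

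Between Control and Ang II the amounts of Cyp2d9 overlapped, and the share of Cyp2d9-207 in them did not. This share is that of the transcript chosen for its low Ang II values, so its separation may follow from the choice. Nothing is read from it, and how often such shares separate over all genes was not counted. Cyp2d9-207 held 9.98% to 14.99% of the Cyp2d9 FPKM in the Control mice and 2.42% to 4.80% in the Ang II mice, and no value of one group fell in the range of the other. The Ang II + QDG mice held 5.94%, 12.2%, 11.03%, 3.63% and 12.3%, and replicate 4 fell inside the Ang II range. The mean shares were 12.1% ± 2.22, 3.33% ± 0.881 and 9.02% ± 3.98 (SD, n = 5 each). As a share of the reads, where its short length gives it less weight, it held 6.47% ± 0.759, 1.66% ± 0.347 and 4.57% ± 2.18. Against Cyp2d9-201 alone, Cyp2d9-207 made up 22.3% ± 3.22 of the pair in Control, 5.63% ± 1.15 in Ang II and 15.1% ± 7.01 with QDG added. Cyp2d9-201 held 42.8% ± 9.33, 57.3% ± 16.6 and 52.6% ± 12.6 of the gene, with overlapping groups.

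**Figure D3:**
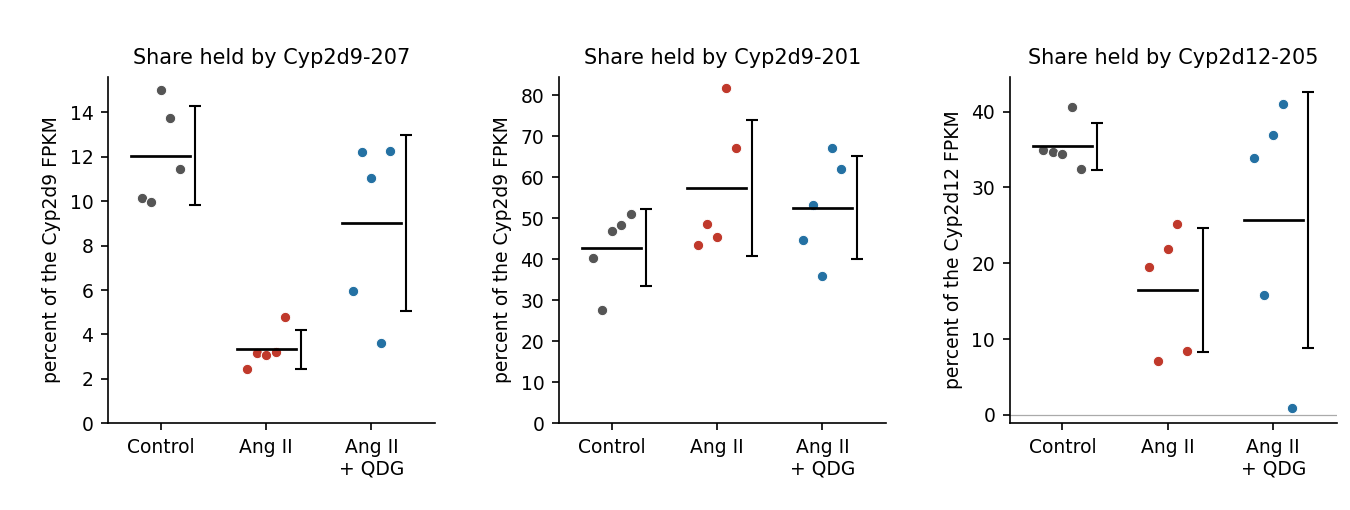
Share of the summed FPKM of its gene held by Cyp2d9-207, Cyp2d9-201 and Cyp2d12-205 in percent, 1 point per mouse (5 mice per group); lines are means and bars are SD. For Cyp2d9-207, which was chosen for its low Ang II values, and for Cyp2d12-205 every Ang II mouse lies below every Control mouse. The Ang II + QDG mice spread over both ranges, with 1 mouse at 0.983% for Cyp2d12-205.

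The other listed Cyp2d genes were not used for the choice of Cyp2d9-207 and were tested with limma on log2(FPKM + 1). Of their 13 transcripts 9 passed the filter of at least 1 FPKM in at least 5 mice. Cyp2d22-201, Cyp2d22-205, Cyp2d22-206 and Cyp2d12-207 did not. In Ang II vs. Control none of the 9 had a Benjamini-Hochberg adjusted p under 0.05 in limma, where 0.691% of all transcripts did. An unadjusted p under 0.05 was reached by 3 of them, against 15.9% of all. A fold change of at least 2 with an unadjusted p under 0.05, the rule for differentially expressed transcripts (DETs), was met by 2 of them, against 2.88% of all. Between Ang II + QDG and Ang II none was called (0.0972% of all), 2 had an unadjusted p under 0.05 (11.3% of all) and none met the rule for DETs (2.24% of all). For Ang II + QDG vs. Control all 3 counts were 0, against 0.0243%, 10% and 2.02% of all. The median log2 fold change of the 9 transcripts was −0.11 in Ang II vs. Control, with 6 lower and 3 higher, beside 0.09 over all transcripts, and 0.43 for Ang II + QDG vs. Ang II beside −0.03.

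At the level of summed genes, none of Cyp2d12, Cyp2d22 and Cyp2d26 was called at an adjusted p under 0.05 in any comparison in limma. Of all 12364 genes tested, 5.94% were called in Ang II vs. Control, 1.81% in Ang II + QDG vs. Ang II and 0.129% in Ang II + QDG vs. Control. An unadjusted p under 0.05 was reached by 1 of the 3 genes, Cyp2d26, in each of the first 2 comparisons, against 22.8% and 16.4% of all genes, and by 0 in the last, against 14.4%.

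Cyp2d26 (chr15:82790101-82794294, minus strand) had the second highest mean sum in FPKM of the 4 listed genes in each group. Its sum was 108, 96.1, 89.4, 100.1 and 157 FPKM in the Control mice and 64.3, 109, 31.7, 23.5 and 116 FPKM in the Ang II mice. The Ang II + QDG mice had 110, 108, 120, 93.1 and 126 FPKM. In Ang II, 3 mice were below every Control mouse and 2 were within the Control range. The log2 fold change was −0.90 (SE 0.37, unadjusted p = 0.0274, adjusted p = 0.160 from limma) for Ang II vs. Control and 0.94 (SE 0.37, unadjusted p = 0.0225, adjusted p = 0.212) for Ang II + QDG vs. Ang II. Against Control, Ang II + QDG differed by 0.04 (SE 0.37, adjusted p = 0.978). Without Ang II replicate 4 the log2 fold changes were −0.59 and 0.63. Without Ang II replicate 5 the adjusted p was 0.0853 and 0.120, and over all alternatives it ranged from 0.0853 to 0.295 and from 0.120 to 0.371.

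The mean Cyp2d26 sum of Ang II minus that of Control was −41.3 FPKM, of which Cyp2d26-202 made up −19.8 FPKM and Cyp2d26-201 −19.7 FPKM. The full-length coding transcript Cyp2d26-201 (ENSMUST00000006094) had a log2 fold change of −0.78 (SE 0.45, adjusted p = 0.439) and then 0.995 (SE 0.45, adjusted p = 0.429) in the same comparisons in limma, and −0.33 and 0.55 without Ang II replicate 4. Cyp2d26-202 (ENSMUST00000229387) is annotated as a target of nonsense-mediated decay and differs from it by a start of exon 2 that lies 29 bases downstream. The joins are shown for this difference, with the 29 absent bases in capitals in Cyp2d26-201 and the 4 bases on each side of the join in Cyp2d26-202.
Cyp2d26-201: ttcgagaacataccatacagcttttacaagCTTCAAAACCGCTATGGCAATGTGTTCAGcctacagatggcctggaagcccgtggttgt
Cyp2d26-202: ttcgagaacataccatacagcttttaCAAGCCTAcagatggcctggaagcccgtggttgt

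Cyp2d26-202 was at 20.6, 22.3, 29.9, 24.1 and 41.1 FPKM in Control. It was listed at 0 in 3 of the 5 Ang II mice and at 29.3 and 9.57 FPKM in the others. Among the Ang II + QDG mice it was listed at 0 in replicate 4 and at 16.5 to 24.7 FPKM in the other 4 mice. Its log2 fold change in Ang II vs. Control, −3.13 (SE 1.06, unadjusted p = 0.0105, adjusted p = 0.164 from limma), met the threshold for DETs but not that for the adjusted p. With mice listed at 0 its size depends on the pseudocount, and with a pseudocount of 0.01 it was −7.10, again not called. Cyp2d26-203 and Cyp2d26-204, a decay target and a retained intron, had adjusted p-values of 0.982 and 0.667 in this comparison. Cyp2d26-203 was listed at 0 in 7 of the 15 mice. Of its words of 31 bases Cyp2d26-202 had 27 and Cyp2d26-201 had 0 that no other annotated transcript holds.

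Cyp2d12 (chr15:82555072-82560403, plus strand) did not differ detectably at the level of the gene. Its sum was 29.2, 30.05, 33.2, 29.9 and 19.7 FPKM in the Control mice, 24.9, 32.2, 21.9, 18.1 and 37.2 FPKM in Ang II and 27.9, 35.0, 34.1, 29.4 and 15.3 FPKM with QDG added. Fitted on the log2 scale, the change was −0.10 (SE 0.23, adjusted p = 0.838 from limma) for Ang II vs. Control and 0.07 (SE 0.23, adjusted p = 0.925) for Ang II + QDG vs. Ang II.

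Within Cyp2d12 a coding transcript that leaves out exon 3, Cyp2d12-205 (ENSMUST00000229904), had lower values in Ang II that did not pass the adjusted test. Exon 3 has 153 bases, a multiple of 3, and the join of exon 2 to exon 4 is shown with 4 bases on each side in capitals.
Cyp2d12-205: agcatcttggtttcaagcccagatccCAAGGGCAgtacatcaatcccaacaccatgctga

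Cyp2d12-205 was at 10.2, 10.4, 11.4, 12.1 and 6.39 FPKM in the Control mice and at 4.86, 2.31, 4.80, 4.55 and 3.15 FPKM in the Ang II mice, where every mouse was below every Control mouse, as for 1.06% of all transcripts. With QDG added it was at 9.43, 5.53, 12.6, 12.1 and 0.151 FPKM. The log2 fold change was −1.18 (SE 0.54, unadjusted p = 0.0459, adjusted p = 0.303 from limma) for Ang II vs. Control and 0.49 (SE 0.54, adjusted p = 0.795) for Ang II + QDG vs. Ang II. Without Ang II + QDG replicate 5, the mouse at 0.151 FPKM, the adjusted p in Ang II vs. Control was 0.0489, and over all 23 alternatives it ranged from 0.0489 to 0.528. Without the same mouse the log2 fold change for Ang II + QDG vs. Ang II was 1.12 (adjusted p = 0.127 from limma).

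The share of the Cyp2d12 FPKM in Cyp2d12-205 was 35.4% ± 3.06 in Control, 16.4% ± 8.14 in Ang II and 25.7% ± 16.8 with QDG added (SD, n = 5 each). It was 32.4% to 40.6% in the Control mice and 7.15% to 25.1% in the Ang II mice. None of the 1392 words of 31 bases in Cyp2d12-205 was its own, since other annotated transcripts also hold its exon 2 to exon 4 join. The full-length coding transcript Cyp2d12-201 (ENSMUST00000068861) had a log2 fold change of −0.11 (SE 0.16, adjusted p = 0.788 from limma) for Ang II vs. Control and 0.43 (SE 0.16, unadjusted p = 0.0184, adjusted p = 0.322) for Ang II + QDG vs. Ang II.

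Cyp2d22 (chr15:82370527-82380260, minus strand) was the lowest of the 4 listed genes. Its sum was 1.16, 1.62, 3.49, 3.02 and 1.88 FPKM in the Control mice, 2.38, 5.11, 3.56, 2.24 and 4.69 FPKM in Ang II and 4.80, 3.05, 1.77, 1.63 and 1.39 FPKM with QDG added. Its fitted difference had the opposite sign to that of Cyp2d9 and Cyp2d26, at 0.51 (SE 0.28, adjusted p = 0.301 from limma) for Ang II vs. Control and −0.42 (SE 0.28, adjusted p = 0.497) for Ang II + QDG vs. Ang II on the log2 scale. The only Cyp2d22 transcript that passed the filter was the retained intron Cyp2d22-204, with 0.69 (SE 0.29, unadjusted p = 0.0305, adjusted p = 0.258) in Ang II vs. Control and 2.30 with a pseudocount of 0.01, where it was not called either. The full-length coding transcript Cyp2d22-201 was above 0.5 FPKM in 4 of the 15 mice.

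**Figure D4:**
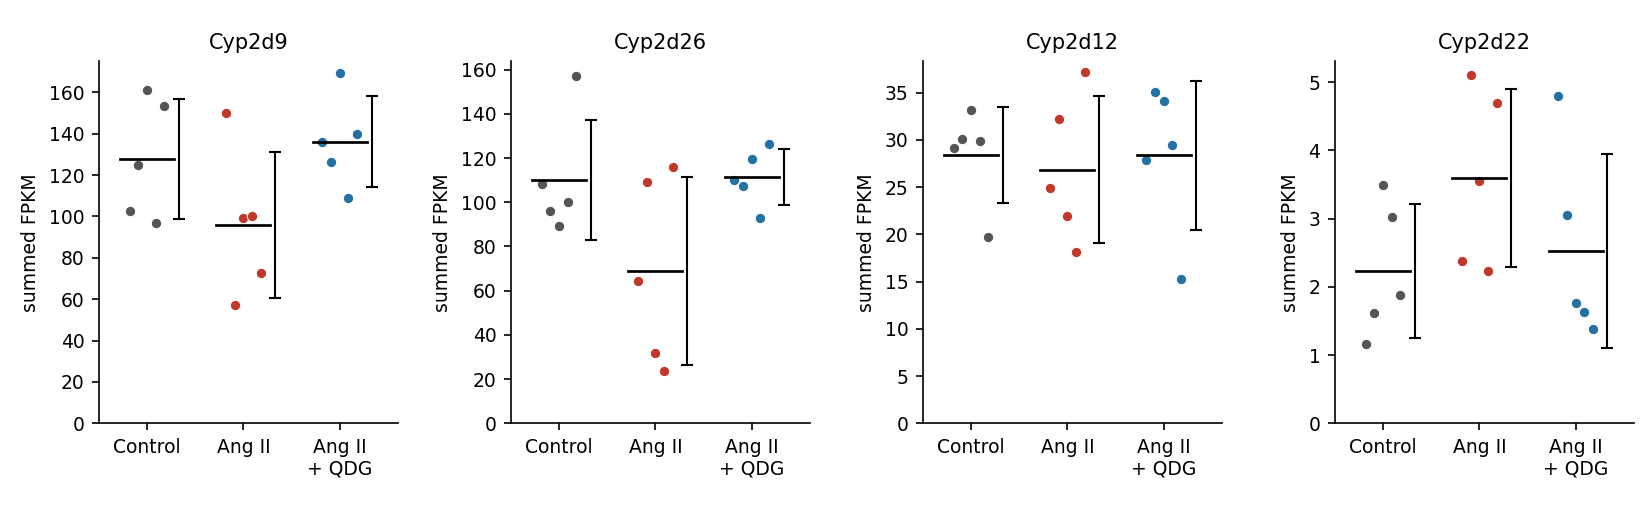
Summed FPKM of the 4 listed Cyp2d genes, 1 point per mouse, for the 3 groups (5 mice each); lines are means and bars are SD. For each of the genes the Ang II mice overlap the Control mice and the Ang II + QDG mice.

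In each group the order of the mean levels per length was Cyp2d9, Cyp2d26, Cyp2d12 and Cyp2d22. In Control, Cyp2d9 and Cyp2d26 did not differ beyond their spread, at 127.7 ± 28.8 and 110.2 ± 27.1 FPKM, and in reads per 1000000 the Cyp2d26 mean was the higher one, at 176.2 beside 170.6. The levels of Cyp2d12, 28.4 ± 5.09 FPKM, and Cyp2d22, 2.23 ± 0.981 FPKM, were each below the gene before them in every mouse. The 4 genes together summed to 268.5 ± 41.4 FPKM in Control, 195.2 ± 43.5 in Ang II and 278.3 ± 32.7 with QDG added (SD, n = 5 each). The Control and Ang II mice overlapped, with 3 of the Ang II mice below every Control mouse.

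**Figure D5:**
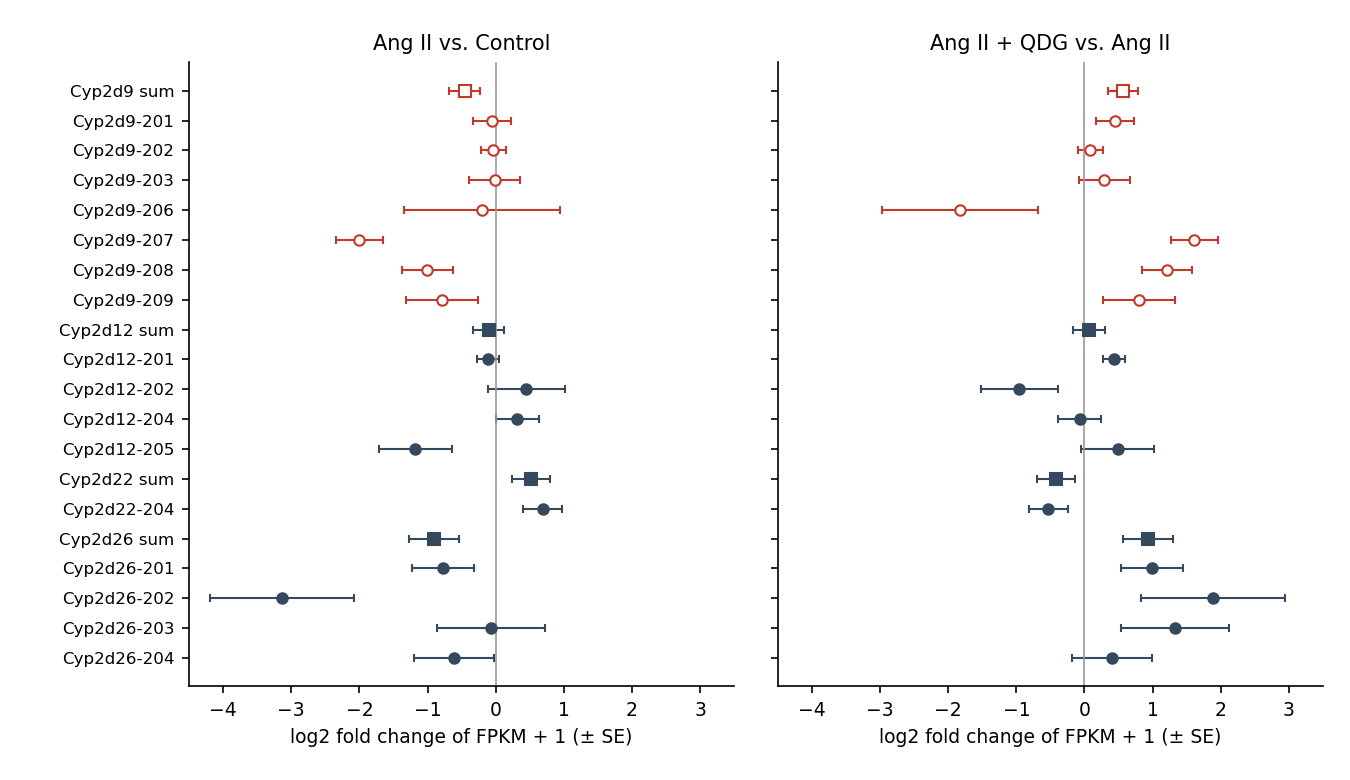
Log2 fold change of FPKM + 1 with its standard error (limma, 15 mice) for the 4 summed genes (squares) and their transcripts that passed the filter (circles). Open red symbols are Cyp2d9 values, which are described without a test, and no filled symbol reached an adjusted p under 0.05. Cyp2d9-207 lies at −2.001 and 1.61, while Cyp2d9-201 lies at −0.05 and 0.44.

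The enzymes that serve the P450s were followed as a list of 10 genes, all of which were tested as sums per gene. In Ang II vs. Control 2 rose, 1 fell and 7 did not pass the test at an adjusted p under 0.05 in limma, where 5.94% of all genes were called. Fech, ferrochelatase, which inserts iron into protoporphyrin to form haem, fell from 67.7 FPKM (63.3 to 77.7 over 5 mice) in Control to 53.7 FPKM (52.1 to 55.5) in Ang II. The log2 fold change was −0.33 (SE 0.06, adjusted p = 0.00807 from limma), and it was called under all 25 alternatives. The Ang II + QDG mean was 65.4 FPKM (62.95 to 68.96), higher than that of Ang II by 0.28 (SE 0.06, adjusted p = 0.0255). That call was lost without Ang II replicate 2 or 5 or Ang II + QDG replicate 2 or 5, with adjusted p-values over all alternatives of 0.00978 to 0.0664. Alas1, the first enzyme of haem synthesis, rose by a log2 fold change of 0.87 (SE 0.24, adjusted p = 0.0478), but in 17 of 25 alternatives this was not called. Cyb5r3, cytochrome b5 reductase, rose by 0.23 (SE 0.05, adjusted p = 0.0150) and was not called after quantile normalization or median scaling. Por had 0.47 (SE 0.13, adjusted p = 0.0556). The median of the list was 0.10 beside 0.08 over all genes.

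Of 17 nuclear receptors and other factors known to act on Cyp2d or sex-biased P450 genes, 16 were tested and none was called in any comparison in limma. In Ang II vs. Control 2 of the 16 had an unadjusted p under 0.05 (22.8% of all genes). The Ang II + QDG mice gave 4 against Ang II (16.4% of all genes) and 3 against Control (14.4%). Among them were Hnf4a with −0.03 (SE 0.13, adjusted p = 0.932) and Stat5b with 0.08 (SE 0.11, adjusted p = 0.692) in Ang II vs. Control. Nr1i3 was not listed. Of 14 genes known as androgen-responsive or male-biased in the kidney, none was called in Ang II vs. Control, with 3 at an unadjusted p under 0.05 and a median log2 fold change of −0.11 (0.08 over all genes). Between Ang II + QDG and Ang II 10 of the 14 had a lower fitted value and 6 an unadjusted p under 0.05, with a median of −0.41 beside −0.02. Against Control, 13 of the 14 were lower in Ang II + QDG and 6 had an unadjusted p under 0.05, with a median of −0.34 beside 0.06 and none called. For Ang II + QDG vs. Ang II, Odc1 (ornithine decarboxylase) with −1.30 (SE 0.26, adjusted p = 0.0255) and Slco1a1 (an organic anion transporter) with −1.08 (SE 0.25, adjusted p = 0.0424) fell, 2 of the 14 where 1.81% of all genes were called. They were not called in 5 and 16 of 25 alternatives. Kap, the kidney androgen-regulated protein, had −1.12 (SE 0.45, adjusted p = 0.158) for Ang II vs. Control and 1.39 (SE 0.45, adjusted p = 0.134) for Ang II + QDG vs. Ang II, the latter opposite in sign to the median of the list. Of 7 female-biased kidney genes 6 were tested and none was called, with 0, 1 and 1 of the 6 at an unadjusted p under 0.05 beside the same shares of all genes. Their median log2 fold change was 0.13 in Ang II vs. Control, with 4 of the 6 higher, beside 0.08 over all genes. The Ang II + QDG mice had 5 of the 6 higher than Ang II (median 0.27 beside −0.02) and 5 of the 6 higher than Control (median 0.43 beside 0.06). The 4 listed Y-linked genes were not called in any comparison, and Xist was not listed.

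The genes within 200 kb of the cluster gave 4 tested genes out of 42. Of these 1 was called in Ang II vs. Control, where 5.94% of all genes were. Srebf2, a transcription factor of cholesterol synthesis, rose in Ang II vs. Control by a log2 fold change of 0.41 (SE 0.08, adjusted p = 0.0121 from limma). Ndufa6 and Smdt1 were at 0.14 and 0.17 and were not called. From Ang II to Ang II + QDG none of the 4 was called, with 2 at an unadjusted p under 0.05 (16.4% of all genes).

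Cell type markers were read beside these results. The 14 proximal tubule markers, among them Slc34a1, Lrp2 and Slc5a2, were all listed and none was called in any comparison in limma, with 4, 3 and 2 of the 14 at an unadjusted p under 0.05 (22.8%, 16.4% and 14.4% of all genes). Their summed level was 5778 to 6574 FPKM in Control, 5848 to 7146 in Ang II and 5805 to 6930 with QDG added. Of 15 hepatocyte markers 9 were listed, with sums of 160 to 237 FPKM in Control, 139 to 213 in Ang II and 174 to 224 with QDG added. Of these only Apob was called in Ang II vs. Control, where 5.94% of all genes were. It fell by 0.39 (SE 0.11, adjusted p = 0.0478 from limma) and was not called in 17 of 25 alternatives. Alb was at 5.74 ± 0.629 FPKM in Control, 3.88 ± 0.716 in Ang II and 5.08 ± 1.24 with QDG added. The 6 that were not listed were Apoa2, Fgb, Ahsg, Mup3 and the hepatic P450 genes Cyp3a11 and Cyp2c29. Of the 8 that were tested 7 had a lower fitted value for Ang II vs. Control and 3 had an unadjusted p under 0.05, and the median was −0.35 beside 0.08 over all genes. From Ang II to Ang II + QDG 7 of the 8 had a higher fitted value, with a median of 0.27 beside −0.02, and 1 had an unadjusted p under 0.05 with none called. Star was the only adrenal marker of 5 listed, at 0.692 to 1.45 FPKM, and 3 of 6 leukocyte markers, Ptprc, Adgre1 and Lyz2, were listed, with none called. All 3 had a lower fitted value for Ang II vs. Control (median −0.39 beside 0.08 over all genes) and a higher one for Ang II + QDG vs. Ang II (median 0.35 beside −0.02), with 0 and 1 at an unadjusted p under 0.05. Their sums were 12.6 to 23.9 FPKM in the Control mice, 7.81 to 18.6 in the Ang II mice and 14.9 to 62.3 with QDG added. The part of the hepatocyte and leukocyte markers in the Cyp2d values was not tested.

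Outside the Cyp2d family, the genes whose sums followed the Cyp2d9 sum most closely over the 15 mice were Ptgds, Cttnbp2nl, Gm8971, Slc3a1 and Sycn, with Pearson r of 0.889, 0.846, 0.842, 0.835 and 0.831 and Spearman rho of 0.879, 0.593, 0.821, 0.600 and 0.846. Within the groups, after the group means were taken out, these r were 0.873, 0.754, 0.769, 0.751 and 0.792. Ptgds, prostaglandin D synthase, was at a mean of 4.28, 2.94 and 4.45 FPKM over the Control, Ang II and QDG-treated mice. The transcripts of other genes most like Cyp2d9-207 were Tfb2m-201, Efcab12-203, Fech-201 and 2 assembled transcripts without a gene name, with r of 0.843 to 0.874, but within groups their r was 0.337 to 0.775. These are the highest of 12360 genes and 28796 transcripts compared, which leave out the listed Cyp2d genes and transcripts, all from the same libraries, and are given as a description.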

How the data were processed

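Kidney RNA of 15 mice was sequenced on an Illumina HiSeq instrument. The labels give rRNA depletion alone, while the methods of the study also name a poly(A) isolation kit, so whether RNA without a poly(A) tail was kept is unclear. The deposited files give 1 value per transcript and mouse, made by the authors, in FPKM. This unit was inferred from the values: FPKM times transcript length was a whole number of reads, within 0.05 reads, for 98.4% to 98.7% of values under 200 reads per mouse. The labels name the mouse build mm10 and limma, while the aligner, the quantifier and the annotation are not given in the sources used here. Transcripts were matched by ID to GENCODE mouse release 21. Assembled transcripts carry no gene name, so sums per gene leave out any that belong to these genes.

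FPKM were summed per gene, and log2(FPKM + 1) of all transcripts or genes that reached 1 FPKM in 5 or more mice was fitted with limma 3.58.1 (lmFit and eBayes with trend, R 4.3.3), with a mean per group and 12 residual degrees of freedom. P-values were two-sided and adjusted by Benjamini-Hochberg over all features, and an adjusted p under 0.05 was called. Fold changes are on the log2(FPKM + 1) scale, which understates changes of low transcripts. The fit was first tested on simulated data. The genes named were all listed members, the called genes of the lists reported, and the 5 features outside the family most like the Cyp2d9 sum and Cyp2d9-207. A few uncalled genes (Por, Kap, Hnf4a, Stat5b, Alb, Ndufa6, Smdt1) were named after their values were seen. A few genes of the lists are not reported here. The members and lists were chosen with earlier results of these data known. Replicate numbers, given in accession order, only name mice. Alternatives were pseudocounts of 0.1 and 0.01, no filter, other scalings, no trend and each mouse left out, and summed reads per 1000000 of the library were added after the data were seen. Pandas 2.3.3 on Python 3.11.15 was used for sums and shares.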

Additional observations from a re-analysis of the deposited data

Results flagged for a closer look

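In groups of 5 mice, a mouse was set apart when its gap to the nearest other mouse was over 0.71 of the range of its group. Of 75 groups examined 10 met this. The limit gives about 1 in 20 only for independent normal values. These values include zeros, and sums that hold the same transcripts, so the count is only a description. The explanations of these values were not tested.

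For Cyp2d9, Ang II + QDG replicate 1 had 61.3 FPKM of Cyp2d9-208, with the others at 27.2 to 36.2 FPKM. Cyp2d9-206 was at 54.17 FPKM in Ang II replicate 1 (others 2.87 to 13.2 FPKM) and at 42.06 FPKM in Ang II + QDG replicate 3 (others 0 to 7.33 FPKM). Among the low transcripts, Cyp2d9-203 was at 1.748 FPKM in Ang II replicate 1 (others 0 to 0.402 FPKM) and Cyp2d9-209 at 6.883 FPKM in Ang II + QDG replicate 3 (others 0.455 to 1.75 FPKM).

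The Cyp2d26 sum was 157.2 FPKM in Control replicate 5, with the other Control mice at 89.4 to 108.1 FPKM. Cyp2d26-203 was at 7.249 FPKM in Control replicate 4 (others 0 to 2.02 FPKM) and Cyp2d26-204 at 20.23 FPKM in Ang II replicate 2 (others 1.52 to 3.76 FPKM). For Cyp2d22, Cyp2d22-201 was at 0.2299 FPKM in Ang II replicate 4 (others 0.00455 to 0.0137 FPKM), and Cyp2d22-204 was listed at 0 in Control replicate 1 (others 0.517 to 0.664 FPKM).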

How the results depend on the processing

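No paired analysis was possible because the replicate numbers were given in accession order and only name the mice. The counts of called Cyp2d transcripts and genes other than Cyp2d9 stayed at 0 under every alternative with all mice. With 1 mouse left out, the count of transcripts in Ang II vs. Control was 0 to 1, the 1 being Cyp2d12-205 without Ang II + QDG replicate 5 (adjusted p = 0.0489 from limma). For Cyp2d9-207 the log2 fold change ranged from −2.12 to −1.84 (Ang II vs. Control) and from 1.44 to 1.93 (Ang II + QDG vs. Ang II) with 1 mouse left out, and for the Cyp2d9 sum from −0.63 to −0.29 and from 0.40 to 0.74. Among genes other than Cyp2d9 the sign turned only in uncalled differences. In Ang II + QDG vs. Control these were Cyp2d22-204 (−0.005 and −0.57 with pseudocounts of 0.1 and 0.01), the Cyp2d22 sum (−0.0049 after quantile normalization), the Cyp2d26 sum (−0.0525 after median scaling) and the Cyp2d12 sum (0.11 from reads per 1000000 of the library, chosen after seeing the data). With 1 mouse left out the range crossed 0 in the same comparison for Cyp2d12-202 (−0.81 to 0.0833), Cyp2d22-204 (−0.0096 to 0.33), Cyp2d26-204 (−0.56 to 0.0016), the Cyp2d12 sum (−0.16 to 0.16), the Cyp2d22 sum (−0.10 to 0.23) and the Cyp2d26 sum (−0.0304 to 0.17). It also did so between Ang II and Control for Cyp2d26-203 (−0.51 to 0.47) and the Cyp2d12 sum (−0.23 to 0.0229), and between Ang II + QDG and Ang II for Cyp2d12-204 (−0.25 to 0.14) and the Cyp2d12 sum (−0.0577 to 0.27). For the other Cyp2d9 transcripts, which have no test, it crossed 0 in Ang II vs. Control for Cyp2d9-201 (−0.22 to 0.16), Cyp2d9-206 (−0.81 to 0.22), Cyp2d9-203 (−0.15 to 0.11) and Cyp2d9-202 (−0.12 to 0.12), between Ang II + QDG and Ang II for Cyp2d9-202 (−0.0622 to 0.19), and between Ang II + QDG and Control for Cyp2d9-202 (−0.0148 to 0.16) and Cyp2d9-209 (−0.39 to 0.33). Over the alternatives with all mice kept, the range crossed 0 in Ang II vs. Control for Cyp2d9-203 (−0.12 to 0.55) and Cyp2d9-202 (−0.16 to 0.0011). In Ang II + QDG vs. Control it crossed 0 for Cyp2d9-202 (−0.039 to 0.0777) and Cyp2d9-209 (−0.0805 to 0.92). The cause was not tested.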
